A study of Mus musculus with 6 samples.

Results

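The cathepsins described here are 10 lysosomal and endosomal proteases of the mouse, given by name: Ctsa, Ctsb, Ctsc, Ctsd, Ctse, Ctsh, Ctsk, Ctsl, Ctss and Ctsz. All 10 were rows of the deposited table of 23337 genes, and all 10 passed the filter on low counts. They were measured by sequencing of polyadenylated RNA in 6 libraries of a neonatal mouse leukemia with an MLL rearrangement, 3 treated with the chemokine CCL5 (group ccl5) and 3 kept under control conditions (group control). Of the treated libraries, ccl5 replicate 1 has the source name neo30ccl5 and is a tertiary transplant, and ccl5 replicates 2 and 3 have the source name neo10ccl5 and are primary transplants. The controls are all titled negative and numbered. Replicate 1 has the source name neo_control and replicate 2 negative, with no transplant given, and replicate 3 has the source name neo10ctrl and is a primary transplant. The labels give no dose, duration or route of CCL5, no strain, sex or age in days, no MLL partner gene, and no meaning for neo10 and neo30. Nothing in them states that the libraries within a group are from different animals or cultures, and the p-values therefore measure only the spread between libraries, which may be technical.

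Cathepsins are made as inactive precursors, carried to the lysosome mainly by mannose 6-phosphate receptors and cut into active enzymes in its acid interior. Most are cysteine proteases of the papain family, cathepsins D and E are aspartic proteases, and cathepsin A is a serine carboxypeptidase. Macrophages and other phagocytes carry large amounts of them for breaking down engulfed material, and some cathepsins trim antigens and the invariant chain for presentation on MHC class II.

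The libraries held between 13421100 and 18445095 gene counts, and 3 counts, taken as the floor of detection, corresponded to 0.160 to 0.273 library-scaled counts (CPM). The libraries formed 3 pairs that cut across the labels. The median absolute difference over the 12174 tested genes was 0.14 on the log2 CPM scale between ccl5 replicates 1 and 3, 0.11 between ccl5 replicate 2 and control replicate 3, and 0.10 between control replicates 1 and 2. All other pairs of libraries lay between 0.44 and 0.66. The paired libraries still differed by more than counting error, with chi-square values per gene of 7.27, 4.48 and 3.55 in the same order where counting error alone gives about 1, so each was kept as a library of its own. Reads on the Y-linked genes Ddx3y, Eif2s3y, Kdm5d and Uty numbered 0, 5103 and 0 in the ccl5 group, by replicate, and 6210, 7777 and 6286 in the control group. The library labelled ccl5 replicate 2 was thus like a control library, and ccl5 replicates 1 and 3 had no control library like them. Each difference between ccl5 and control below is therefore also a difference between these pairs, and treatment and leukemia of origin cannot be told apart in ccl5 replicates 1 and 3. Whether labels were exchanged between libraries was not tested, and the groups are kept as labelled.

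Cathepsin RNA was abundant in every library and most abundant in ccl5 replicates 1 and 3. The 10 genes took 3.40%, 0.600% and 3.35% of all gene counts in the ccl5 group, by replicate, against 0.925%, 0.907% and 0.587% in control replicates 1 to 3. The exact binomial 95% intervals of these shares, which cover counting error only, reached from 3.391% to 3.408%, 0.596% to 0.604% and 3.343% to 3.362% for the ccl5 libraries, and from 0.920% to 0.930%, 0.903% to 0.912% and 0.584% to 0.591% for the controls. In bulk RNA, more cells of a type that makes cathepsins and more cathepsin RNA per cell cannot be told apart. Scaled to library size, the 10 genes summed to 40172, 5066 and 40893 CPM in the ccl5 libraries and to 9087, 8908 and 5004 CPM in the control libraries. The groups overlapped, since ccl5 replicate 2 lay beside control replicate 3.

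**Figure D1:**
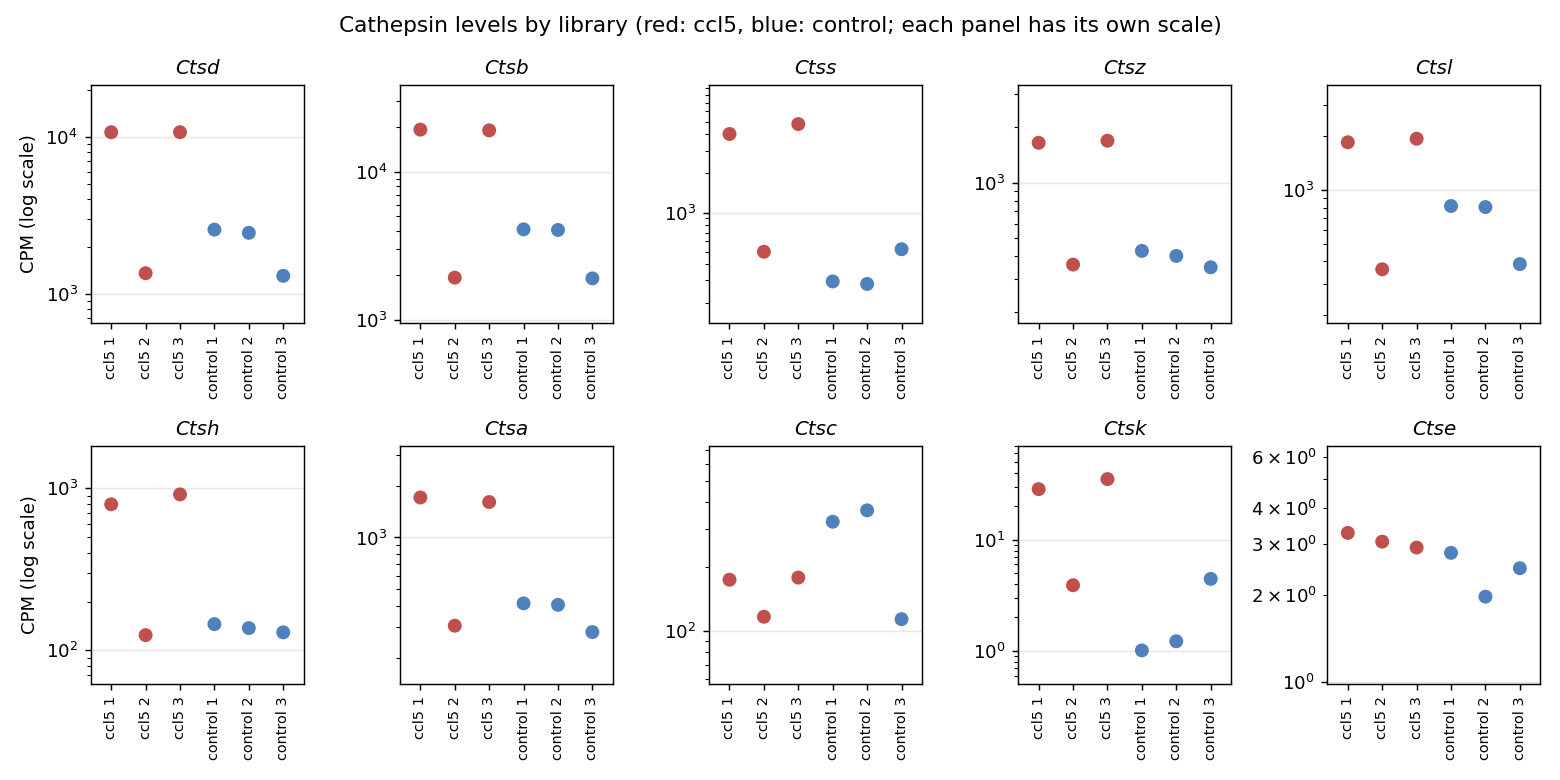
CPM of each of the 10 cathepsins (vertical axis, log scale, own range in each panel) in each library, with the ccl5 libraries in red on the left and the control libraries in blue on the right. For Ctsb, Ctsd, Ctss, Ctsz, Ctsl, Ctsh, Ctsa and Ctsk, ccl5 replicates 1 and 3 lie far above the other 4 libraries, while ccl5 replicate 2 lies beside control replicate 3.

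The papain-like endopeptidases include the most abundant member by CPM. Ctsb encodes cathepsin B, which cuts within proteins and also removes dipeptides from their ends (chromosome 14, 63122462 to 63145923, plus strand, mm10). It measured 19221, 1935 and 18998 CPM under CCL5 (replicates 1 to 3) versus 4092, 4055 and 1912 CPM in control libraries. Its highest library was 10.1 times its lowest. Control replicates 1 and 2 lay between ccl5 replicates 1 and 3 above them and the remaining pair below. Ctsb shares 774 exon bases, 16.3% of its own, with the opposite-strand gene Fdft1, and since the counting set no strand, reads there cannot be assigned to either gene. Fdft1 itself had only 328 to 779 counts, against at least 31728 for Ctsb.

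Ctsl encodes cathepsin L, a strong endopeptidase of lysosomal protein breakdown (chromosome 13, 64363214 to 64370306, minus strand). It measured 1854, 361 and 1941 CPM under CCL5 versus 816, 805 and 386 CPM in control libraries. The layout was that of Ctsb, with a smaller range of 5.37 times.

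Ctss and Ctsk are neighbours on chromosome 3, on the plus strand, with 17423 bases between the end of Ctsk (95499286 to 95509362) and the start of Ctss (95526786 to 95556403). Cathepsin S stays active near neutral pH and cleaves the invariant chain in antigen-presenting cells, and cathepsin K is the collagen-degrading protease of osteoclasts. Ctss measured 4019, 499 and 4793 CPM under CCL5 versus 295, 282 and 522 CPM in control libraries. Ctsk measured 28.6, 3.90 and 35.2 CPM under CCL5 versus 1.01, 1.22 and 4.45 CPM in control libraries. These genes shared a layout that differed from that of Ctsb and Ctsl: control replicates 1 and 2 were the lowest libraries, below ccl5 replicate 2 and control replicate 3. Ctsk had 402, 64 and 387 counts under CCL5 versus 16, 23 and 81 counts in control libraries. Its range of 34.7 times was the widest of the 10 genes, and that of Ctss, 17.0 times, the next.

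The promoter windows of both genes are given because they are neighbours with a like pattern. Each runs from 250 bases before a start site to 50 after it, 5′ to 3′ (RefSeq, GRCm38.p6, the assembly of mm10, Ctsk at chr3:95498960-95499259 and Ctss at chr3:95526536-95526835, both plus strand). Capitals mark GAGGAAG on either strand, a sequence that contains the core bound by PU.1 and other ETS factors.
Ctsk: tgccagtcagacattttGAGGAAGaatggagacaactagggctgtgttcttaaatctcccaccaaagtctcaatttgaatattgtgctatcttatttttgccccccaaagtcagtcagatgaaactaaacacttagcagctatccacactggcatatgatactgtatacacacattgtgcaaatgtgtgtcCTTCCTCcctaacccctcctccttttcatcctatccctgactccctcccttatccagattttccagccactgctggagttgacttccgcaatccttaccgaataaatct
Ctss: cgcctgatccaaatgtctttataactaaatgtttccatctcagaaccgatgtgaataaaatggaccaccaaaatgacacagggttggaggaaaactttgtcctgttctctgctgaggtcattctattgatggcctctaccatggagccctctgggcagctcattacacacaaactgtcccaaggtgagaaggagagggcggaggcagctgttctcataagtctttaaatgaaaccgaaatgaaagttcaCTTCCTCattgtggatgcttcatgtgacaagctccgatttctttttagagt
The Ctsk window holds 2 matches, at -233 and -59 from its start site, and the Ctss window 1 match, at -1. The same letters are found in 13.6% of the 32851 RefSeq promoter windows, so a match by itself is common. The Ctsk window starts from a site 76 bases before the deposited gene model, and the Ctss window from that model's own start.

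The papain-like exopeptidases fell into different layouts. Ctsh encodes cathepsin H, an aminopeptidase (chromosome 9, 90054267 to 90076095, plus strand), and measured 797, 124 and 918 CPM under CCL5 versus 145, 137 and 129 CPM in control libraries. Ctsz encodes cathepsin Z, also called X, a carboxypeptidase (chromosome 2, 174427494 to 174438992, minus strand). It measured 1640, 361 and 1683 CPM under CCL5 versus 428, 402 and 349 CPM in control libraries. For both genes the control libraries were close together, with SD of 8.01 CPM for Ctsh and 40.2 CPM for Ctsz, and ccl5 replicate 2 lay at their level.

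Ctsc was the only member with a higher mean CPM in the control libraries than in the ccl5 libraries. It encodes cathepsin C, or dipeptidyl peptidase I, which activates the serine proteases of neutrophil, mast cell and lymphocyte granules (chromosome 7, 88278093 to 88310875, plus strand). It measured 174, 117 and 178 CPM under CCL5 versus 324, 366 and 114 CPM in control libraries. Here control replicates 1 and 2 were the highest libraries, ccl5 replicates 1 and 3 came next, and ccl5 replicate 2 and control replicate 3 were the lowest. Its promoter window (chr7:88277835-88278134, plus strand, starting from a site 8 bases before the deposited gene model) is given for comparison with those of Ctsk and Ctss, with the same capitals.
Ctsc: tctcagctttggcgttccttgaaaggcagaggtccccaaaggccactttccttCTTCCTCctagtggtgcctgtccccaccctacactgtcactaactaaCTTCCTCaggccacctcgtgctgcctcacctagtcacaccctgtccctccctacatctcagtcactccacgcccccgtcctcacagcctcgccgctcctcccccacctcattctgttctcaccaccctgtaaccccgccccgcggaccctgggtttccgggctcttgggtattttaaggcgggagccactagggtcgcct
It holds 2 matches to GAGGAAG, at -197 and -150, so these letters were present in the windows of members with unlike patterns.

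Among the aspartic proteases, Ctsd encodes cathepsin D, a main lysosomal endopeptidase that also processes prosaposin (chromosome 7, 142375916 to 142387870, minus strand). It measured 10728, 1355 and 10737 CPM under CCL5 versus 2570, 2452 and 1304 CPM in control libraries, in the layout of Ctsb. Ctse encodes cathepsin E, an endosomal relative found mainly in gut, skin and immune cells (chromosome 1, 131638314 to 131675507, plus strand). It was low in every library, at 3.27, 3.05 and 2.91 CPM under CCL5 versus 2.79, 1.97 and 2.47 CPM in control libraries, or 46, 50 and 32 counts under CCL5 versus 44, 37 and 45 counts in control libraries. Ctse was the only member whose 3 ccl5 libraries all lay above its 3 control libraries, and its highest library was only 1.66 times its lowest.

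Ctsa encodes cathepsin A, or protective protein, which stabilises the lysosomal enzymes neuraminidase 1 and beta-galactosidase (chromosome 2, 164832873 to 164841032, plus strand). It measured 1708, 307 and 1607 CPM under CCL5 versus 414, 406 and 282 CPM in control libraries. As for Ctsb, control replicates 1 and 2 lay between ccl5 replicates 1 and 3 above them and the remaining pair below. Its exons share 324 bases with Neurl2 and 495 with Pltp on the opposite strand, both with at most 148 counts in any library.

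CACGTG is the core of the element bound by TFEB, TFE3 and MITF, which control many lysosomal genes. It was present in the windows of Ctsd and Ctsl and in a window that starts inside Ctsa. Of the 10 members, 7 had a RefSeq window and 3 (Ctsb, Ctse and Ctsh) were not analysed here in this respect. The windows of Ctsd (chr7:142387778-142388077, minus strand) and of a start site within Ctsa (chr2:164833523-164833822, plus strand, 900 bases inside the deposited gene model) hold 2 matches each and are shown with the matches, and any T before or A after them, in capitals.
Ctsd: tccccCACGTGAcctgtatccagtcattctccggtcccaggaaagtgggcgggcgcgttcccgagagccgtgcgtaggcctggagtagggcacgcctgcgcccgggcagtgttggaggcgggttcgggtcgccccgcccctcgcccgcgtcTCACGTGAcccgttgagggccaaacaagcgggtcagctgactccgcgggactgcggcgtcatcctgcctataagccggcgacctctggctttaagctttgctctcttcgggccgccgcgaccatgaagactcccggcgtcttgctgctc
Ctsa: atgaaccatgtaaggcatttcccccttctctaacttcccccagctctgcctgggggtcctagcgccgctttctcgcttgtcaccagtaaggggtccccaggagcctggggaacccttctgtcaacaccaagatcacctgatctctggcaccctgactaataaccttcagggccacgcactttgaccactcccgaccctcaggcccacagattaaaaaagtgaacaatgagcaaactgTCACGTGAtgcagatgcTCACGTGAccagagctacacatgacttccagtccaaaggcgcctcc
In Ctsd the matches start at -245 and -98, and in Ctsa at -12 and 5, beside the start site. The Ctsl window, from a site 214 bases before the deposited gene model, holds 1 match, at -236. The other Ctsa window, from a site 1 base before the deposited gene model, holds 0 matches. Ctsa has 2 windows in the table and the other 6 genes 1 each, and the letters occur in 3 of these 8 windows against 7.15% of all 32851 windows. The longer TCACGTG, which overlaps CACGTG, occurs in 2 of the 8 windows, those shown, against 3.77% of all windows. A match is a description of these letters and does not show binding in these cells.

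Between genes, levels are compared as CPM per kilobase of exon. In the order of the mean over the 6 libraries, Ctsd (2486) led, followed by Ctsb (1764), Ctss (1280), Ctsz (582), Ctsl (521), Ctsh (231), Ctsa (214), Ctsc (85.8), Ctsk (8.36) and Ctse (1.29 CPM per kilobase). Ctsd was above Ctsb in 6 of 6 libraries, by 1.35 to 1.70 times, and Ctsb above Ctss in 6 of 6. Ctsl was above Ctsh and Ctsc above Ctsk in 6 of 6 libraries. The order of the other neighbours depended on the library. Ctss was above Ctsz, Ctsz above Ctsl, Ctsa above Ctsc and Ctsk above Ctse in 4 of 6 libraries each, and Ctsh was above Ctsa in 3 of 6.

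The make-up of the family, as shares of its summed CPM per kilobase, separated the control libraries. Ctss made up 18.9%, 17.3% and 21.7% of the family under CCL5 versus 6.32%, 6.19% and 18.3% in control libraries. Control replicate 3 thus had a Ctss share like that of the ccl5 libraries, at a family total of 2108 CPM per kilobase against 15673 in ccl5 replicate 1. Ctsl made up 6.0%, 8.63% and 6.03% under CCL5 versus 12%, 12.2% and 9.29% in control libraries. The shares of ccl5 replicate 2 and control replicate 3 were close, and by CPM the groups of Ctsl overlapped. A share also depends on the levels of the other members. Ctsc made up 0.448%, 2.23% and 0.442% under CCL5 versus 3.80%, 4.41% and 2.18% in control libraries. Ctsd kept a share between 31.6% and 38.1% in every library.

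**Figure D2:**
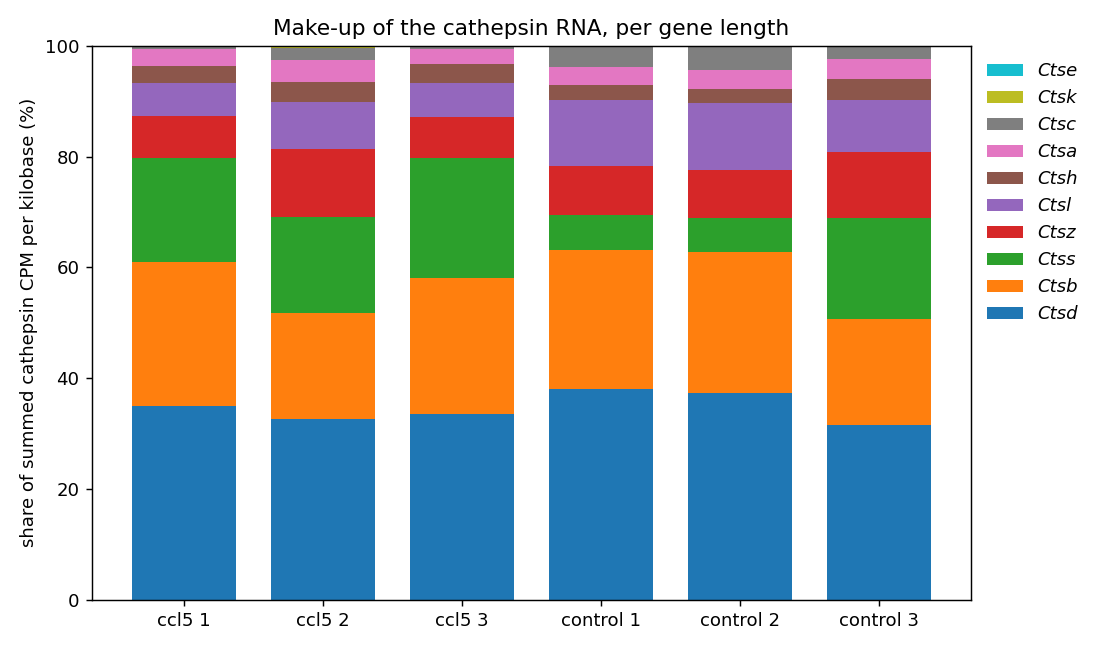
Share of each cathepsin in the summed CPM per kilobase of the 10 genes (vertical axis, percent) in each library, the ccl5 libraries on the left and the control libraries on the right. Ctsd has between 31.6% and 38.1% in each bar, and the green Ctss segment is narrow only in control replicates 1 and 2, at 6.32% and 6.19%.

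By its labels, the comparison of ccl5 with control asks about the response of these leukemic cells to CCL5, within the limits of the library pairs. The fold change was above 0 for 9 of the 10 cathepsins, against 49.0% of all tested genes, and the log2 fold change was above 1 for 8, against 7.77%. The median log2 fold change of the 10 genes was 1.78, beside -0.01 over all tested genes. None passed edgeR's quasi-likelihood test at an adjusted p of 0.05, as was so for all 12174 genes (0% called), whose smallest adjusted p was 0.365. Before adjustment, 5 members were higher at a p under 0.05 (Ctss, Ctsk, Ctsh, Ctsz and Ctsa), against 8.99% of all genes (1095), and 0 members were lower, against 4.67% (568). DESeq2 called 2 members higher, Ctss and Ctsk, against 0.970% of the genes it tested (118 higher, with 81 lower). The groups did not overlap for 1 member, Ctse, against 8.27% of all genes with every ccl5 library above every control library, which is near the background for 10 genes, and 0 members lay wholly below the controls, against 7.49%.

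Ctsk had the largest fold change, with 22.6 ± 16.5 CPM under CCL5 versus 2.23 ± 1.93 CPM in control libraries (SD, n = 3 each). This was a log2 fold change of 3.33 (SE 1.0), with an adjusted p of 0.365 in edgeR and 0.0309 in DESeq2. Ctss averaged 3103 ± 2289 CPM under CCL5 versus 366 ± 135 CPM in control libraries (SD, n = 3 each), a log2 fold change of 3.08 (SE 0.85), with an adjusted p of 0.365 in edgeR and 0.0164 in DESeq2. Within the ccl5 group, replicates 1 and 3 had 8.06 and 9.61 times the Ctss level of replicate 2. The log2 fold change was 2.16 (SE 0.70) for Ctsh, 2.0 (SE 0.86) for Ctsb, 1.85 (SE 0.79) for Ctsd, 1.72 (SE 0.64) for Ctsa and 1.64 (SE 0.58) for Ctsz. For Ctsl it was 1.05 (SE 0.67) and for Ctse 0.35 (SE 0.28). Ctsc, at 156 ± 34.2 CPM under CCL5 versus 268 ± 135 CPM in control libraries (SD, n = 3 each), had a log2 fold change of -0.78 (SE 0.46, adjusted p = 0.466 in edgeR).

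These values depended on which libraries stood on each side. Without ccl5 replicate 2, edgeR called 8 of the 10 cathepsins higher, against 14.3% of the genes tested there, with log2 fold changes between 1.51 for Ctsl and 3.83 for Ctsk. The exceptions were Ctsc (-0.60, adjusted p = 0.414) and Ctse (0.36, adjusted p = 0.415). In that fit every ccl5 library was above every control library for 9 of the 10 genes, against 31.8% of all genes. Restricted to Y-positive libraries, the fit set ccl5 replicate 2 alone against the 3 controls, and the fold change was above 0 for 3 of the 10 (Ctss, Ctsk and Ctse) and the median was -0.20. With primary transplants alone, ccl5 replicates 2 and 3 against control replicate 3, the median was 1.86, no member was called, and 6 members were higher in both ccl5 libraries than in the control, against 24.1% of all genes.

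Between the most similar libraries of unlike label, the cathepsins were close to level. The CPM ratio of ccl5 replicate 2 over control replicate 3 lay between 0.877 for Ctsk (95% counting interval 0.622 to 1.23) and 1.23 for Ctse (0.808 to 1.89). It was 1.01 for Ctsb (0.997 to 1.03), 0.955 for Ctss (0.927 to 0.984) and 1.04 for Ctsd (1.02 to 1.06). These intervals cover counting error only, and a pair of libraries has no replicate check. Between ccl5 replicates 3 and 1, of the same label, the ratio lay between 0.889 for Ctse (0.548 to 1.43) and 1.23 for Ctsk (1.07 to 1.42).

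**Figure D3:**
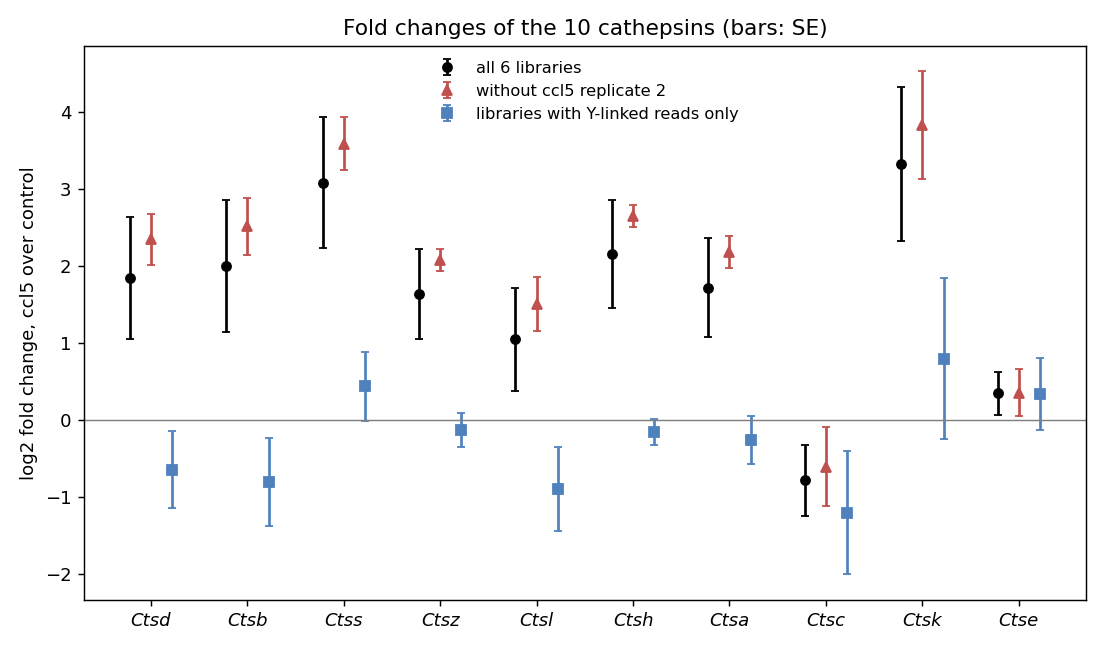
Log2 fold change of each cathepsin, ccl5 over control (vertical axis, bars show the SE), with all 6 libraries (black), without ccl5 replicate 2 (red) and with only the libraries that have Y-linked reads (blue, ccl5 replicate 2 against 3 controls). Red points lie above the black ones, by only 0.36 against 0.35 for Ctse, and blue points lie below 0 for all but Ctss, Ctsk and Ctse.

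Of the genes nearest in pattern, measured as the root mean square difference of centred log2 CPM over the 6 libraries, those of Ctsd were Tmem109 (0.09), Abca5 (0.10), Susd3 (0.10), Ttyh2 (0.11) and P2rx4 (0.11). Those of Ctsk were Ptafr (0.12), Ms4a7 (0.22), AU022793 (0.27), Cxcl16 (0.27) and Amz1 (0.28). The nearest gene was Sema4d for Ctsb (0.08), Gcsh for Ctsc (0.04), Zfp444 for Ctse (0.08), Wdr91 for Ctsh (0.08), Psmd8 for Ctsl (0.06), Igf1 for Ctss (0.07) and Scarb2 for Ctsz (0.05). Igf1, a growth factor gene, measured 330, 36.2 and 362 CPM under CCL5 versus 21.8, 22 and 43.0 CPM in control libraries. Within the family, the closest were Ctsb and Ctsd (0.12), Ctsa and Ctsz (0.13), and the farthest Ctsc and Ctsk (2.32).

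Genes that process and carry cathepsins varied in layout. Of 14 such genes, all tested, edgeR called 0. DESeq2 called 2 higher, Lgmn (adjusted p = 0.0156) and Psap (adjusted p = 0.0156), against 0.970% of the genes it tested. The fold change of 13 was above 0 and that of 1 below it, and the median log2 fold change was 1.14. In 3 of them (Lgmn, Sort1 and Tfeb) every ccl5 library was above every control library, against 8.27% of all tested genes. Lgmn, which encodes legumain, the protease that cuts cathepsins B, H and L into their 2-chain forms, measured 920, 94.5 and 886 CPM under CCL5 versus 70.0, 62.0 and 88.4 CPM in control libraries. Psap, which encodes prosaposin, measured 17229, 1076 and 15460 CPM under CCL5 versus 1079, 1081 and 999 CPM in control libraries. Tfeb, the lysosomal transcription factor gene, measured 64.1, 15.2 and 59.4 CPM under CCL5 versus 13.1, 11.5 and 13.8 CPM in control libraries. Lgmn, Psap and Tfeb were high in ccl5 replicates 1 and 3 and near the controls in ccl5 replicate 2, with an adjusted p of 0.365 each in edgeR. Of the mannose 6-phosphate receptor genes Igf2r and M6pr, Igf2r did not share that layout, as seen after their values were known. Igf2r measured 67.9, 86.2 and 59.2 CPM under CCL5 versus 4.31, 5.16 and 75 CPM in control libraries. M6pr had that layout over a smaller range. It was highest in ccl5 replicates 1 and 3, and ccl5 replicate 2 lay among the controls. Its highest library was only 1.51 times its lowest.

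Protease inhibitors were laid out differently. Of 10 inhibitor genes 9 were tested, with fold changes above 0 for 2 and below 0 for 7 and a median of -3.54. EdgeR called 0 of them and DESeq2 called 1 lower, Stfa3 (adjusted p = 9.02e-06), against 0.666% of the genes DESeq2 tested. The summed level of the 10 genes was 2862, 1114 and 2856 CPM under CCL5 versus 21027, 20993 and 1204 CPM in control libraries, so control replicate 3 lay with the ccl5 libraries. In control replicates 1 and 2 most of that sum was Slpi, an inhibitor of serine proteases, at 17922 and 18035 CPM. The cysteine cathepsin inhibitors Cst3 and Cstb, the list members with fold changes above 0, were highest in ccl5 replicates 1 and 3. Stfa3 and Stfa2 encode stefins, cytosolic inhibitors of cysteine cathepsins, and have near-identical copies between which reads may be split. Stfa3 measured 0.569, 1.77 and 1.09 CPM under CCL5 versus 622, 628 and 1.32 CPM in control libraries, and Stfa2 had 0, 44 and 0 counts under CCL5 versus 7934, 8639 and 58 counts in control libraries. Cst7 encodes cystatin F, an inhibitor of cathepsin C, and measured 22.8, 27.7 and 20.3 CPM under CCL5 versus 107, 113 and 25.3 CPM in control libraries. Its log2 fold change was -1.79 (SE 0.56, adjusted p = 0.365 in edgeR). Its high libraries, control replicates 1 and 2, were also those of Ctsc.

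Of 7 partner and substrate genes 5 were tested, with fold changes above 0 for 2 and below 0 for 3. Neither edgeR nor DESeq2 called any, but DESeq2 gave Elane, Prtn3 and Ctsg no adjusted p. Neu1, the neuraminidase held stable by cathepsin A, measured 245, 230 and 238 CPM under CCL5 versus 160, 134 and 217 CPM in control libraries, and Glb1, the beta-galactosidase of the same complex, 150, 52.1 and 130 CPM under CCL5 versus 71.1, 74.4 and 48.5 CPM in control libraries. Ctsg, a granule serine protease activated by cathepsin C and not a lysosomal cathepsin by class, measured 172, 1983 and 115 CPM under CCL5 versus 1732, 1739 and 2138 CPM in control libraries. It was thus low in the libraries where Ctsb and Ctsd were high. Of the 14 genes of the file named Cts that are not members, 3 were tested (Ctsg, Ctsf and Ctso) and edgeR called 0. Ctso measured 38.4, 19.3 and 38.0 CPM under CCL5 versus 27.3, 28.2 and 20.7 CPM in control libraries, and Ctsf 1.71, 3.72 and 1.09 CPM under CCL5 versus 2.22, 2.13 and 3.02 CPM in control libraries. Ctsw had at most 7 counts and each of the other 10, a placenta-expressed group on chromosome 13 in the mouse, at most 1 count in any library.

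Of 9 genes of MHC class II antigen presentation, in which cathepsin S cleaves the invariant chain, 8 were tested, with fold changes above 0 for 7 and a median of 0.74. EdgeR called 0 of them. DESeq2 called 3 higher, Cd74 (adjusted p = 0.00955), H2-Aa (adjusted p = 0.0174) and H2-Eb1 (adjusted p = 0.00395), against 0.970% of the genes it tested. Cd74, the invariant chain gene, measured 70.3, 1.10 and 55.9 CPM under CCL5 versus 0.950, 1.92 and 1.81 CPM in control libraries. H2-Aa measured 33.9, 1.04 and 34.9 CPM under CCL5 versus 1.33, 1.65 and 1.32 CPM in control libraries, and H2-Eb1 24.3, 0.793 and 25.5 CPM under CCL5 versus 0.443, 0.479 and 0.769 CPM in control libraries. Ctss and these 3 genes, named for their small p, were thus all highest in ccl5 replicates 1 and 3. So were H2-Ab1, H2-DMa, Ciita and Ifi30 of the list, while H2-DMb1 and H2-DMb2 were not. H2-DMb1 measured 80.3, 69.0 and 79.8 CPM under CCL5 versus 86.9, 82.0 and 78.9 CPM in control libraries. Of 7 osteoclast genes, chosen because of Ctsk, 4 were tested by edgeR and 0 called, with fold changes above 0 for all 4. DESeq2, run without that filter, called 1 gene of the list lower, Dcstamp (adjusted p = 0.0168), against 0.666% of the genes it tested. Nfatc1, a transcription factor of osteoclast formation, measured 69.9, 30.7 and 55.4 CPM under CCL5 versus 16.7, 17.6 and 26.7 CPM in control libraries. Acp5, which encodes tartrate-resistant acid phosphatase, measured 7.11, 3.66 and 6.18 CPM under CCL5 versus 1.52, 2.02 and 3.08 CPM in control libraries. Atp6v0d2, a proton pump subunit, measured 165, 10.1 and 211 CPM under CCL5 versus 25.8, 27.9 and 14.3 CPM in control libraries.

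**Figure D4:**
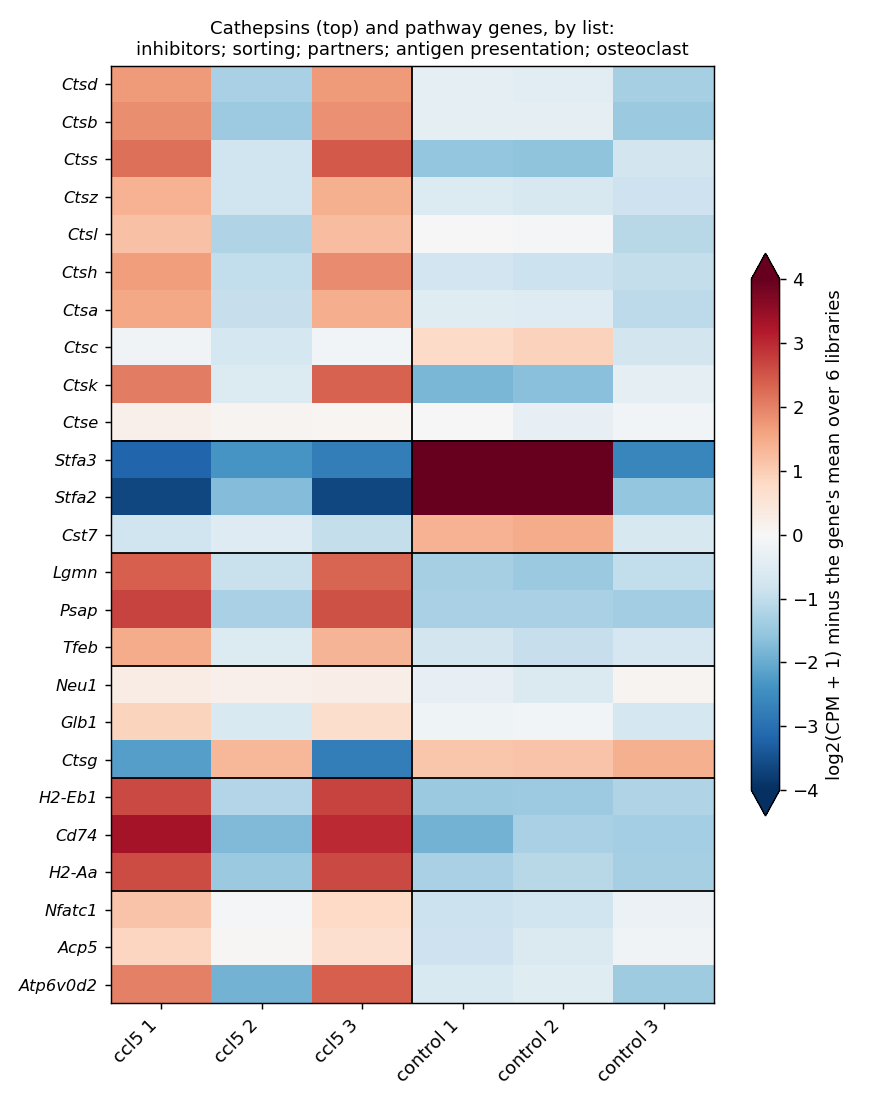
Log2(CPM + 1) of the 10 cathepsins and of the named genes of 5 pathway lists, each centred on its own mean over the 6 libraries (colour scale, values beyond 4 in the end colours), with the ccl5 libraries left of the vertical line and the control libraries right of it. The sorting and antigen presentation genes share the red columns of ccl5 replicates 1 and 3 with most cathepsins, while Stfa2, Stfa3 and Cst7 are red in control replicates 1 and 2, where Stfa3 measured 622 and 628 CPM.

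Markers of some other cell types differed along with the cathepsins, and their part in these differences was not tested. Of the 18 monocyte and macrophage markers edgeR called 0 and DESeq2 3 higher (among them Klf4 and Marco), against 0.970% of the genes DESeq2 tested. Fold changes were above 0 for 14 of these markers and below 0 for 4. The 18 markers summed to 23007, 5838 and 26241 CPM under CCL5 versus 15219, 15013 and 6323 CPM in control libraries. Most of that sum was Lyz2, at 14716, 3020 and 17557 CPM under CCL5 versus 10971, 10672 and 3339 CPM in control libraries. Between ccl5 replicate 1 and control replicate 1 the cathepsin sums stood farther apart, at 40172 against 9087 CPM, than these Lyz2 levels. Cd68, a lysosomal membrane protein gene of macrophages, measured 2029, 160 and 1984 CPM under CCL5 versus 448, 511 and 156 CPM in control libraries. The 4 markers with fold changes below 0 were Cd14, Cd163, Ly6c2 and Ccr2. Cd14 measured 31.2, 17.6 and 29.9 CPM under CCL5 versus 194, 188 and 18.3 CPM in control libraries. Ly6c2 measured 121, 1211 and 107 CPM under CCL5 versus 1498, 1519 and 1276 CPM in control libraries. The 12 neutrophil markers summed to 674, 13879 and 705 CPM under CCL5 versus 1268, 1315 and 13494 CPM in control libraries. The sum was thus high in ccl5 replicate 2 and control replicate 3, the libraries with the least cathepsin RNA. Most of it in ccl5 replicate 2 was Elane and Ngp, at 4542 and 4899 CPM. Mmp8 of the same list was instead highest in ccl5 replicates 1 and 3, at 464, 249 and 533 CPM under CCL5 versus 44.0, 35.5 and 286 CPM in control libraries. The 9 B-cell markers summed to 49.8, 14.7 and 45.9 CPM under CCL5 versus 14.2, 17.0 and 15.4 CPM in control libraries, with Pax5, Ebf1 and Ms4a1 at 2 counts or fewer. Most of the sum in ccl5 replicates 1 and 3 was Blnk, at 34.2, 2.68 and 33.1 CPM under CCL5 versus 0.0633, 0.0532 and 3.13 CPM in control libraries. T-cell markers summed to at most 2.97 CPM, NK-cell markers to at most 0.213 CPM and erythroid markers to at most 2.01 CPM, with Hba-a1, Hba-a2, Hbb-b1 and Hbb-b2 at 0 counts in every library. Dendritic cell markers, mostly Itgax and with Flt3 called higher by DESeq2 (adjusted p = 0.0382), summed to 135, 3.54 and 103 CPM under CCL5 versus 102, 108 and 4.56 CPM in control libraries. Megakaryocyte markers summed to at most 30.6 CPM, mast cell, basophil and eosinophil markers to at most 14.8 CPM, and stromal and endothelial markers to at most 95.1 CPM, most of it Pecam1, a gene that leukocytes also express.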

How the data were processed

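Whole-number read counts, not normalized, were deposited in 1 table with a column for each of the 6 libraries. The authors counted primary alignments with featureCounts 1.5.1 on the UCSC mm10 annotation, per the file headers, with no strand option, so opposite-strand genes cannot be told apart. Per the submitters' processing notes, the tools also included TopHat, Bowtie, Trimmomatic and DESeq2, no version given. CPM are counts over the TMM-scaled library total. Counts were scaled by TMM and filtered with filterByExpr (minimum count 10), and ccl5 was tested against control with the two-sided quasi-likelihood test of edgeR 4.0.16 in R 4.3.3, Benjamini-Hochberg adjusted over all 12174 tested genes. The SE is the absolute log2 fold change over the square root of F. The fit was tested on simulated data whose libraries were drawn independently, so that test does not cover the library pairs seen here. Levels per kilobase use the exon length in the deposited table. Likeness used log2 CPM with a prior count of 2. Alternatives included DESeq2 1.42.0. Named genes are the members, the other Cts genes, up to 3 tested genes of smallest p in each pathway list, defining lineage markers, and the genes nearest in pattern (5 each for Ctsd and Ctsk, otherwise 1), and others were chosen after their values were seen. Members and lists were chosen with earlier results of these data known. Some genes under these rules, among them the nearest to Ctsa, are not reported here. Promoter sequences are from RefSeq (GRCm38.p6).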

Additional observations from a re-analysis of the deposited data

How the results depend on the processing

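Over 12 alternatives, 103 of 120 member fold changes kept their direction and stayed not called, 10 became called and 7 turned sign. With libraries that have Y-linked reads only, the turned values were -0.26 for Ctsa, -0.80 for Ctsb, -0.64 for Ctsd, -0.15 for Ctsh, -0.89 for Ctsl and -0.12 for Ctsz, with a median over the 10 cathepsins of -0.20. With primary transplants only, Ctsc turned to 0.36 and 6 cathepsins lay above control replicate 3, the only control there, in every ccl5 library, against 24.1% of all genes. DESeq2 called 199 genes and 2 cathepsins, Ctss and Ctsk. Leaving out a library in turn gave 0 to 3299 called genes (0% to 26.2% of those tested) and 0 to 8 called cathepsins. It also gave 1 to 9 cathepsins without overlap, against 8.73% to 31.8% of all genes, and a median of 1.46 to 2.27. The highest of each came without ccl5 replicate 2. Without control replicate 3, 237 genes and 0 cathepsins were called and 3 cathepsins did not overlap, against 21.7% of all genes. DESeq2 size factors and both other filters called 0 genes. The cause of these changes was not tested. No paired analysis was possible because the titles number the control libraries only. Ctse had the fewest counts of the 10, 32 to 50 per library.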

Other observations

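Within the osteoclast list, the genes for the cell fusion proteins DC-STAMP and OC-STAMP ran opposite to Ctsk. They were chosen after their values were seen and were below edgeR's filter on low counts, though DESeq2 called Dcstamp lower (adjusted p = 0.0168). Dcstamp had 1, 0 and 2 counts under CCL5 versus 369, 527 and 0 counts in control libraries. Ocstamp had 0, 0 and 1 counts under CCL5 versus 15, 24 and 0 counts in control libraries. Control replicates 1 and 2, where these genes were detected, had the lowest Ctsk of the 6 libraries, at 1.01 and 1.22 CPM.

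Cystatins C and B, the widely expressed inhibitors of cysteine cathepsins, were also looked at after their values were seen. Cst3 measured 962, 369 and 1069 CPM under CCL5 versus 421, 401 and 392 CPM in control libraries (log2 fold change 0.98, SE 0.41), and Cstb 408, 184 and 485 CPM under CCL5 versus 262, 269 and 203 CPM in control libraries (0.55, SE 0.38). Neither passed edgeR's test (adjusted p = 0.367 and 0.520). Both were high in ccl5 replicates 1 and 3, as most cathepsins were, while Slpi, a secreted inhibitor of serine proteases, measured 1467, 392 and 1279 CPM under CCL5 versus 17922, 18035 and 450 CPM in control libraries.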
